A study of Mus musculus with 2 samples.

Results

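The 10 genes described here are *Myh1*, *Myh2*, *Myh4*, *Mylpf*, *Tpm2*, *Mybpc2*, *Mybph*, *Myom3*, *Csrp3* and *Smpx*, a set of sarcomere genes measured in the striated muscle at the base of mouse skin. They were chosen by symbol among the 19465 genes of the probe panel, and all 10 were in the files. They were read in muscle spots, which are spots with at least 200 unique molecular identifiers (UMIs, counts of single captured molecules) in which 6 muscle genes (*Ckm*, *Atp2a1*, *Mylpf*, *Myh1*, *Myh2* and *Myh4*) made up at least 3% of the UMIs. Of 3175 spots over tissue, 2174 had 200 UMIs or more, and 520 of these were muscle spots. A spot covers a small region with several cells or muscle fibres, so fewer fibres of a kind and less RNA per fibre cannot be told apart. *Mylpf* and the 3 myosin heavy chains are themselves part of the spot rule, so that their excess over other spots is no finding. The split of UMIs among the myosins was not itself a criterion. It is not independent of the rule, because each myosin adds to the sum that the rule uses.

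Hairless SKH-1 mice, female and aged 10 to 12 weeks, supplied the skin, which was profiled by probe-based Visium spatial transcriptomics. The 4 groups were skin given ultraviolet radiation (UVR) plus the retinoid 9-cis HPR at 0.03%, skin given UVR plus retinol at 0.1%, skin given UVR alone, and normal skin as the control. Each group was 1 section, so no test across animals was possible, and every interval below is a 95% interval for counting error only. Both treated skins lay on 1 capture area, and UVR and control skin on another, so that treatment and capture area cannot be told apart when a treated skin is set against UVR skin. The labels call the sections of an area upper and lower, which was read as the image row. The spot grid runs the other way, and the files do not settle which was meant; the grid reading exchanges the groups on each area. The UVR dose, the schedule and the number of mice behind a section are not given in the sources used here.

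Striated muscle contracts as thick filaments of myosin slide along thin filaments of actin within sarcomeres, which are bounded by Z-discs and held in register at the M-band. Each myosin molecule carries heavy chains, the motors that set the fibre type, and light chains that tune them, and adult mouse fast muscle uses the heavy chains IIa, IIx and IIb in order of rising shortening speed. The panniculus carnosus is a thin sheet of mostly fast skeletal muscle that lies under the fat of rodent skin and moves it.

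The muscle spots lay on the side of the tissue away from the keratinocyte-rich spots. In the image, 192 of 192, 134 of 134, 167 of 169 and 25 of 25 lay below the median row of the keratinocyte-rich spots within 3 spot spacings to either side, in the order of HPR, retinol, UVR and control. There were 192 in HPR-treated skin (29.8% of kept spots, exact binomial interval 26.3 to 33.5%), 134 in retinol-treated skin (24.6%, 21.1 to 28.5%), 169 in UVR skin (26.1%, 22.8 to 29.7%) and 25 in control skin (7.37%, 4.83 to 10.7%). Their median distance to the nearest keratinocyte-rich spot was 6.12, 6.03, 4.38 and 4.39 spot spacings, against 1.01 to 1.74 for the remaining spots that were neither muscle nor keratinocyte-rich (at least 3% of UMIs from 5 keratinocyte genes). All but 1, 0, 2 and 0 of the muscle spots adjoined another one. They formed a band in the 3 irradiated sections. In control skin they were caught only as 2 patches, with 8 spots at the left edge and 17 at the right. Of 6 markers of skeletal muscle, *Ckm* is part of the spot rule. The other 5 (*Acta1*, *Tnnt3*, *Tnni2*, *Actn3*, *Pvalb*) were detected in every section and summed to 44288, 57772, 67543 and 70370.0 CPM (a gene's UMIs as counts per 1000000 of all UMIs in the spots), whereas none of 4 smooth muscle markers (*Acta2*, *Myh11*, *Tagln*, *Cnn1*) had a UMI there. The slow heavy chain *Myh7* had 0 UMIs in all muscle spots, which allows at most 25.7, 26.2, 9.46 and 74.6 CPM (a limit of 3 counts per section). The label of fast skeletal muscle thus matches its markers, while the name panniculus rests only on the position of the spots in the tissue.

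Depth and purity differed between the sections. Muscle spots held 116601 UMIs in HPR-treated skin, 114589 in retinol-treated skin, 317189 in UVR skin and 40216 in control skin, with median UMIs per spot of 560.5, 706.5, 1673 and 876. A reference of 12 other sarcomere genes (*Acta1*, *Actn3*, *Myl1*, *Tnnt3*, *Tnni2*, *Tnnc2*, *Tpm1*, *Neb*, *Ttn*, *Tcap*, *Myoz1*, *Ldb3*) made up 7.46, 9.53, 11.3 and 10.4% of those UMIs. The keratinocyte markers (*Krt5*, *Krt14*, *Krt10*, *Krt1*, *Lor*) summed to 3756, 2749, 1539 and 2611 CPM, with *Krt1* at 0 in retinol-treated and control muscle spots, and 5, 4, 5 and 4 of the 5 genes were detected. The fibroblast markers (*Col1a1*, *Col1a2*, *Col3a1*, *Dcn*, *Lum*) summed to 1810, 942.5, 378.3 and 472.4 CPM, with 5, 3, 5 and 4 of 5 genes detected. Their part in the results was not tested. Each member is therefore given per all UMIs and per 1000 reference UMIs, the second being a scale within muscle, and a call on another gene that holds on only 1 of these scales is said to do so. The probe design is not given, so levels of different genes are not set against each other. At the edge of the spot rule, the 9 spots with 3 to 4% muscle UMIs had 9490 CPM of *Myh4* and 3402 CPM of *Tpm2*, and the 16 spots with 2 to 3% had 9245 and 770.4 CPM.

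The heavy chain genes were split differently in the 4 sections. *Myh4* encodes heavy chain IIb, *Myh1* heavy chain IIx and *Myh2* heavy chain IIa, and the 3 genes lie side by side on chromosome 11 (GRCm38.p6, the same assembly as mm10), *Myh2* at 67171027 to 67197517, *Myh1* at 67200102 to 67224577 and *Myh4* at 67237812 to 67260447. The bases before their starts are shown because the genes, which are neighbours and close paralogs, had different levels along 1 muscle sheet. The sequences are from RefSeq, 250 bases 5′ of each annotated start on the plus strand, and capitals mark the longest run that all 3 share.
Myh4 chr11:67237562-67237811: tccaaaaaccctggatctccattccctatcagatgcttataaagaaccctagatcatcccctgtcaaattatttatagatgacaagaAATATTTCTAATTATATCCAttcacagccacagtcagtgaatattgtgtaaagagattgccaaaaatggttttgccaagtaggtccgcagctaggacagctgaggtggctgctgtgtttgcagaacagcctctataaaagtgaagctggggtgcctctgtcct
Myh1 chr11:67199852-67200101: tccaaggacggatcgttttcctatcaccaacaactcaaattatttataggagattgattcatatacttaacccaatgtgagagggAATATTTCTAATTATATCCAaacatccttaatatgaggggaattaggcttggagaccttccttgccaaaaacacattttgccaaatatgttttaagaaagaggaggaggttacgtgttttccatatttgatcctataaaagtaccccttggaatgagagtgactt
Myh2 chr11:67170777-67171026: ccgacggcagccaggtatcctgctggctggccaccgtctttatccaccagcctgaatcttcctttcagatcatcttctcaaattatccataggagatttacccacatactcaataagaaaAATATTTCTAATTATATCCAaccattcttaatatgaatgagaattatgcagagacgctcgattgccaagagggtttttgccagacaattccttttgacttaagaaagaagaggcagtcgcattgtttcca
The shared run of 20 bases, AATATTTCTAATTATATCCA, began 163 bases before the start of *Myh4*, 165 before that of *Myh1* and 130 before that of *Myh2*. Searched on both strands in the same window of 32851 annotated promoters, it occurred in 3, those of these genes. Its presence in these 3 was fixed by the way it was chosen, so the count is a description. The letters TATAAA were present on either strand in 12.4% of the windows. In the copy nearest the start they stood 31 bases before the *Myh4* start and 32 before the *Myh1* start. They were not found in the *Myh2* window, where the shared run stood nearer the annotated start. Bases past the annotated starts were not searched, so this absence holds for the window only. The letters CANNTG, a palindrome on both strands, occurred at 2 places in the *Myh4* window and in neither other window, against 66.2% of all windows with at least 1. No binding or chromatin data bear on these matches.

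*Myh4* had 1395 UMIs in HPR-treated muscle spots (11964 CPM), 5296 in retinol-treated (46217 CPM), 22394 in UVR (70601 CPM) and 4952 in control (123135 CPM). The order ran from lowest in HPR-treated to highest in control skin, and no 2 neighbours had overlapping intervals. It kept this order per 1000 reference UMIs, with 160, 485, 623 and 1189. *Myh1* had 1036, 845, 4010 and 189 UMIs in the same sections, or 8885, 7374, 12642 and 4700 CPM, so that UVR skin was highest and control skin lowest, again with no overlap of intervals between neighbours. Per 1000 reference UMIs HPR-treated skin was highest, with 119 (112 to 127), 77.4, 112 (108 to 115) and 45.4, and the intervals of HPR-treated and UVR skin overlapped. *Myh2* was sparse, with 64, 92, 127 and 4 UMIs, or 549, 803, 400.4 and 99.5 CPM, and retinol-treated skin was highest. The intervals of *Myh2* in HPR-treated skin (423 to 701 CPM) overlapped those of both neighbours in the order, retinol-treated skin (647 to 985 CPM) and UVR skin (334 to 476 CPM). *Myh2* per 1000 reference UMIs was 7.36, 8.43, 3.53 and 0.960, and only the treated skins overlapped among neighbours.

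The split among the 3 heavy chains put HPR-treated skin apart from the other sections. *Myh4* made up 55.9% of their UMIs in HPR-treated muscle (interval 53.9 to 57.9%, 2495 UMIs), 85.0% in retinol-treated (84.1 to 85.8%, 6233 UMIs), 84.4% in UVR (84.0 to 84.8%, 26531 UMIs) and 96.2% in control muscle (95.7 to 96.8%, 5145 UMIs). The intervals of retinol-treated and UVR skin overlapped. *Myh1* took 41.5, 13.6, 15.1 and 3.67% and *Myh2* 2.57, 1.48, 0.479 and 0.0777%. Because the heavy chains are so alike, the probes may cross-react, and shares are compared between sections only, not read as amounts of protein or fibres. Among spots with at least 10 heavy chain UMIs, *Myh4* was below 50% in 32 of 85 HPR-treated spots, 7 of 112 retinol-treated spots, 15 of 160 UVR spots and 0 of 24 control spots. The median spot had 69.2, 86.8, 87.5 and 98.2% *Myh4*. In HPR-treated skin these spots ranged from 0 to 100%, with the lower quartile at 6.25% and the upper at 86.5%, against quartiles of 71.9 and 92.98% in retinol-treated skin and 72.1 and 94.1% in UVR skin.

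**Figure D1:**
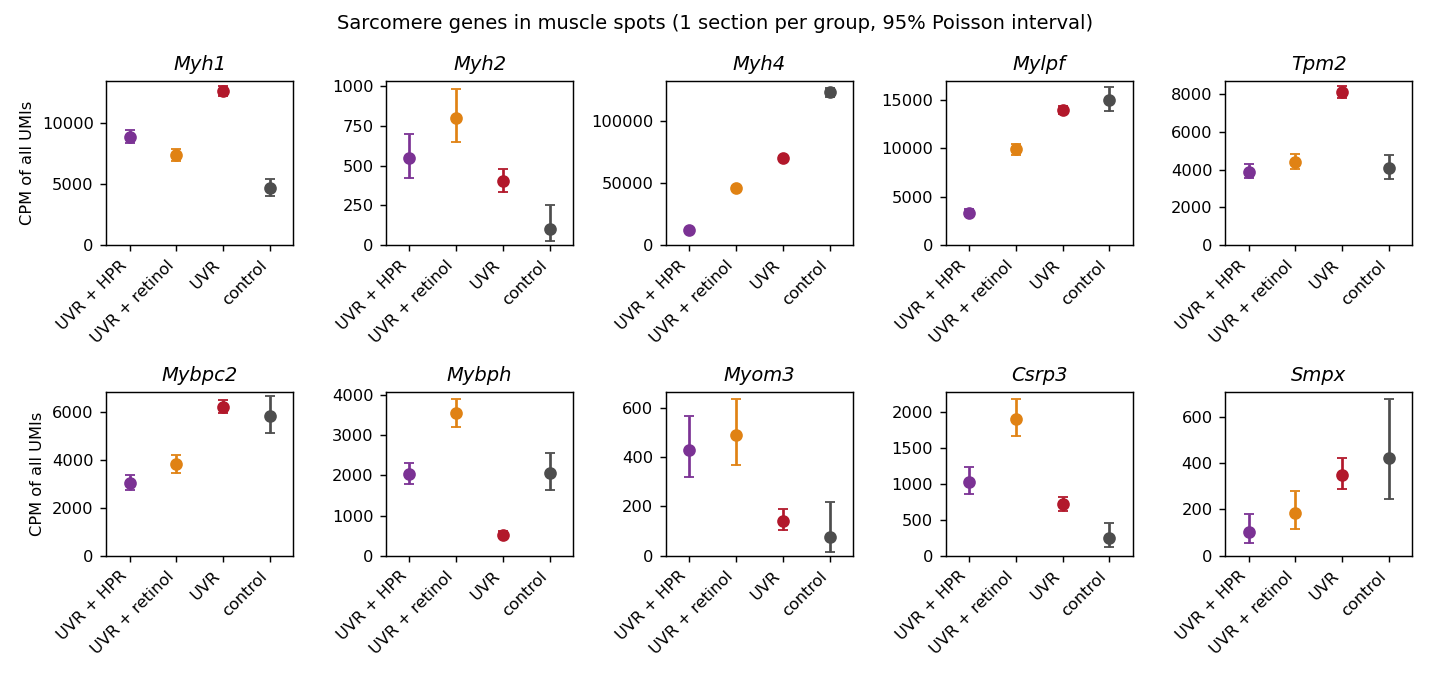
Level of each of the 10 genes in the muscle spots of the 4 sections, in CPM of all UMIs (linear axes from 0, a scale per panel); points are 1 section each and bars are exact Poisson intervals. *Myh4* and *Mylpf* step up from HPR-treated through retinol-treated and UVR to control skin, *Mybph* is lowest in UVR skin at 526.5 CPM, and *Csrp3* is highest in retinol-treated skin at 1902 CPM.

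The lowest *Myh4* shares of HPR-treated muscle lay in 1 continuous stretch of the sheet. Along 6 segments of equal width from left to right in the image, *Myh4* was 64.6, 3.14, 0.873, 44.6, 66.8 and 87.6% of heavy chain UMIs in HPR-treated skin. It was 95.5, 92.4, 77.8, 87.5, 76.2 and 69.4% in retinol-treated skin and 82.1, 90.2, 93.2, 87.4, 79.4 and 70.0% in UVR skin. Control muscle was present only in the first and the last segment, with 100 and 94.8%. Thus segment 6 of HPR-treated skin lay above segment 6 of retinol-treated and of UVR skin, while segments 2 and 3 lay below all other segments of any section. The correlations that follow used only muscle spots with at least 10 heavy chain UMIs. These were 85 of 192 in HPR-treated, 112 of 134 in retinol-treated, 160 of 169 in UVR and 24 of 25 in control skin. Neighbours among them had like *Myh4* shares in HPR-treated skin (Pearson r = 0.90 over 119 pairs of adjoining spots). They were less alike in retinol-treated (0.39, 210 pairs), UVR (0.35, 326 pairs) and control skin (0.22, 39 pairs). Pairs share spots and are no replicates, and the part of the muscle covered differed between sections. Within a section, *Myh4* share and the UMIs of a spot had r between -0.21 and -0.11. *Myh4* share and the share of the 6 spot-rule genes in a spot had r of 0.28 in HPR-treated and 0.50 in retinol-treated skin. In UVR and control skin that r was 0.41 and 0.07. *Myh4* UMIs are counted in the share of the spot-rule genes, so a positive r is partly built in. The share of the sarcomere reference genes in a spot does not count *Myh4*. With that share, *Myh4* share had r of -0.37 in HPR-treated and -0.03 in retinol-treated skin. In UVR and control skin the r with the reference share was -0.09 and -0.01.

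**Figure D2:**
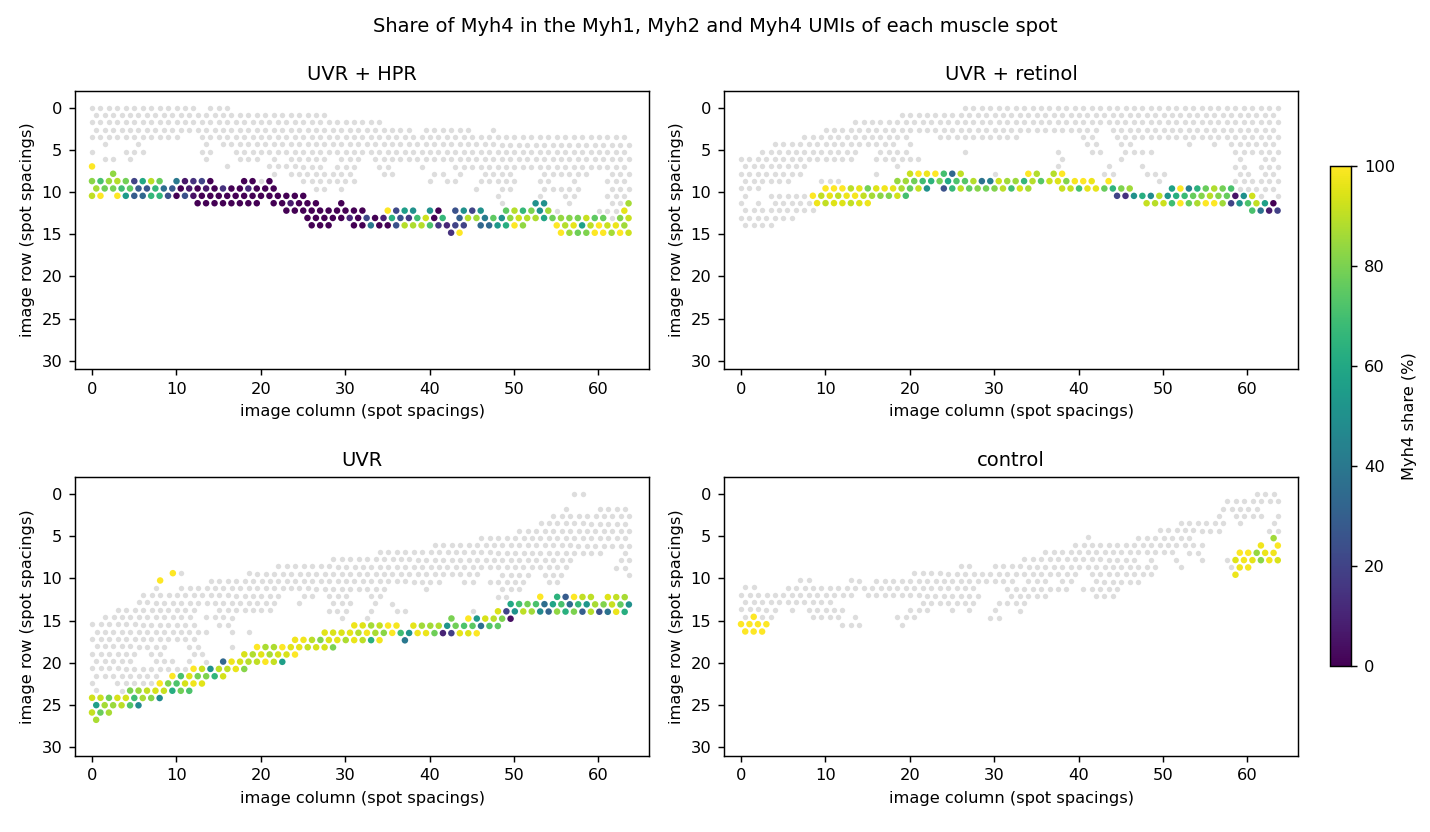
Position of the muscle spots in each section, coloured by the share of *Myh4* in the *Myh1*, *Myh2* and *Myh4* UMIs of the spot (percent, from dark at 0 to yellow at 100), with the other kept spots in grey and both axes in spot spacings. Dark spots form 1 stretch in HPR-treated skin, where segments 2 and 3 had 3.14 and 0.873% *Myh4*, and control muscle is 2 patches of 8 and 17 spots.

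Segments 2 and 3 of HPR-treated skin were singled out after this map was seen and are described without a test. They held 69 muscle spots, 58 of them with no *Myh4* UMI, against 9 of the 123 other muscle spots of that section. The stretch had 14 *Myh4* and 567 *Myh1* UMIs, and the rest of the sheet 1381 and 469. Per reference UMI, *Myh4* was 67.8-fold lower in the stretch than in the rest (interval 40.3 to 124), and *Myh1* 1.76-fold higher (1.55 to 1.99). *Mybph* was 2.08-fold higher there (1.59 to 2.72) and *Csrp3* 1.66-fold higher (1.14 to 2.42). Both excesses lay in segment 2. Per 1000 reference UMIs *Mybph* had 55.1 in segment 2 and 17.2 in segment 3, against 19.0 in the rest. *Csrp3* had 22.5 and 11.7, against 10.9 in the rest. *Mylpf* was within 1.02-fold (0.827 to 1.25) and *Tpm2* within 1.08-fold (0.888 to 1.30). *Mybpc2* was 1.26-fold lower (1.01 to 1.58), and the calcium buffer gene *Pvalb*, which is no member, was 1.59-fold lower (1.06 to 2.41). Median UMIs per spot were 612 in the stretch and 524 in the rest. The keratinocyte markers summed to 1600 CPM in the stretch and 5023 CPM in the rest, with *Krt5* 4.66-fold and *Lor* 3.94-fold lower per reference UMI. The rest was uneven in this. From segment 1 to segment 6 the sum was 1395, 1216, 2112, 2868, 4549 and 10570 CPM. Segment 1, with 64.6% *Myh4*, was thus as low as the stretch. The part of these markers was not tested. Without the stretch, HPR-treated muscle had 73.3% *Myh4*, and *Myh4* was still lower than in UVR muscle, with a log2 ratio of -1.91 against -2.56 with all spots.

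*Mylpf*, the regulatory light chain of fast myosin, was low in HPR-treated muscle along the whole sheet. It had 391 UMIs in HPR-treated (3353 CPM), 1132 in retinol-treated (9879 CPM), 4424 in UVR (13948 CPM) and 604 in control muscle (15019 CPM), and intervals overlapped only between UVR skin (13540 to 14365 CPM) and control skin (13845 to 16266 CPM). Per 1000 reference UMIs it had 44.96, 104, 123 (119 to 127) and 145 (134 to 157), with no overlap between neighbours. By segment it lay between 35.4 and 59.8 in HPR-treated skin, 81.0 and 125 in retinol-treated skin, 95.2 and 139 in UVR skin and at 146 and 145 in the control patches. The ranges of HPR-treated skin and of every other section did not overlap, unlike those for *Myh4*, where segment 6 of HPR-treated skin (485 per 1000) passed segments 3, 5 and 6 of retinol-treated and segment 6 of UVR skin.

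*Tpm2* and *Mybpc2* moved less. *Tpm2*, which encodes beta-tropomyosin of the thin filament, had 3894 CPM in HPR-treated, 4398 CPM in retinol-treated, 8121 CPM in UVR and 4078 CPM in control muscle, so that UVR skin was highest and the other intervals overlapped (3544 to 4269, 4023 to 4800 and 3478 to 4752 CPM). Relative to 1000 reference UMIs it had 52.2 (47.5 to 57.2), 46.2 (42.2 to 50.4), 71.7 and 39.4 (33.6 to 45.9), and HPR-treated and control skin did not overlap on that scale. *Mybpc2*, the fast form of myosin-binding protein C on the thick filament, had 3036, 3814, 6220 and 5843 CPM in the same order, with overlap between UVR and control skin (5949 to 6501 and 5120 to 6640 CPM). Per 1000 reference UMIs, *Mybpc2* had 40.7 and 40.0 in the treated skins, against 54.9 in UVR and 56.4 in control skin.

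*Mybph* was lowest in UVR muscle. It encodes myosin-binding protein H, a thick-filament protein. It had 238 UMIs in HPR-treated (2041 CPM), 406 in retinol-treated (3543 CPM), 167 in UVR (526.5 CPM) and 83 in control muscle (2064 CPM). The intervals of HPR-treated (1790 to 2318 CPM) and control skin (1644 to 2558 CPM) overlapped. On the scale of 1000 reference UMIs it had 27.4, 37.2, 4.65 and 19.9, and the same 2 sections overlapped (24.0 to 31.1 and 15.9 to 24.7). After each spot was thinned to 200 UMIs, 22.8% of HPR-treated, 35.0% of retinol-treated, 7.29% of UVR and 34.7% of control muscle spots had a *Mybph* UMI; without thinning the shares were 41.1, 65.7, 28.4 and 80.0%. The other kept spots had 0.835, 1.5, 0.378 and 1.25% after thinning. *Mybph* was uneven along the sheet. Per 1000 reference UMIs it had 29.9, 55.1, 17.2, 3.32, 4.65 and 23.2 over the segments of HPR-treated skin and 8.93, 63.1, 29.3, 30.8, 18.7 and 25.1 over those of retinol-treated skin. It had 1.93 to 8.75 in UVR skin, and 34.7 and 13.9 in the control patches. Segments 4 and 5 of HPR-treated skin and segment 1 of retinol-treated skin were thus at or near the range of UVR skin. These 3 segments held only 3, 4 and 3 UMIs of *Mybph*.

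*Csrp3* and *Myom3* were highest in the treated skins. *Csrp3* encodes muscle LIM protein, found at the Z-disc and in the nucleus of striated muscle. It had 120 UMIs in HPR-treated (1029 CPM), 218 in retinol-treated (1902 CPM), 227 in UVR (715.7 CPM) and 10 in control muscle (248.7 CPM), and no neighbours in order of level had overlapping intervals (853 to 1231, 1658 to 2172, 626 to 815 and 119 to 457 CPM). The values per 1000 reference UMIs were 13.8, 19.97, 6.32 and 2.40, also without overlap. On that scale its segments lay between 6.98 and 22.5 in HPR-treated, 5.95 and 25.6 in retinol-treated and 2.90 and 13.4 in UVR skin, so the ranges overlapped. The left control patch had no *Csrp3* and no *Myh1* UMI, which allows up to 2.48 per 1000 reference UMIs at a limit of 3 counts (3.05 as the upper end of the exact Poisson interval), and the right patch had 3.38 and 64.0. *Myom3*, a myomesin of the M-band, had 50, 56, 45 and 3 UMIs, or 429, 489, 142 and 74.6 CPM, and the intervals of the treated skins (318 to 565 and 369 to 635 CPM) overlapped, as did those of UVR and control skin (103 to 190 and 15.4 to 218 CPM). It had, per 1000 reference UMIs, 5.75, 5.13, 1.25 and 0.720, with the same overlaps.

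*Smpx* was sparse, above all in the treated skins. It encodes a small striated-muscle protein and lies on the X chromosome. It had 12, 21, 111 and 17 UMIs, or 103, 183, 350.0 and 423 CPM, in HPR-treated, retinol-treated, UVR and control muscle. The treated skins overlapped (53.2 to 180 and 113 to 280 CPM), and so did UVR and control skin (288 to 421 and 246 to 677 CPM). The levels per 1000 reference UMIs were 1.38, 1.92, 3.09 and 4.08, and there retinol-treated (1.19 to 2.94) and UVR skin (2.54 to 3.72) overlapped too.

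**Figure D3:**
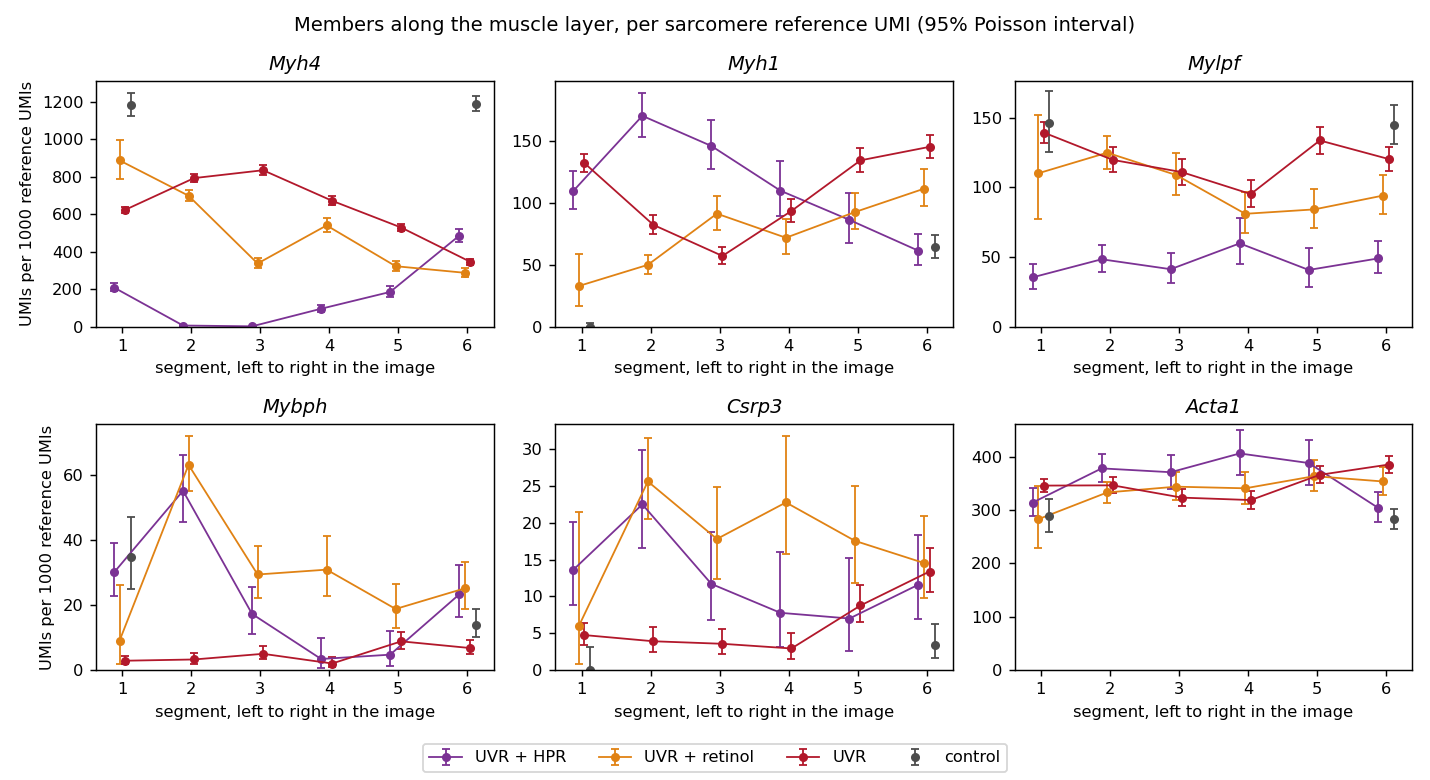
UMIs per 1000 reference UMIs of 5 of the genes and of the reference gene *Acta1* over 6 segments of the muscle sheet, left to right in the image, with exact Poisson intervals; control skin has muscle in segments 1 and 6 only. *Mylpf* of HPR-treated skin stays between 35.4 and 59.8, below every other section, and *Myh4* drops to 5.75 and 1.37 in its segments 2 and 3. *Acta1* lies between 283 and 406 in all segments of all sections. Because *Acta1* is counted in the reference itself, its narrow range is partly built in.

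HPR-treated against retinol-treated skin, both irradiated and on the same capture area, differed past 2-fold in *Myh4* and *Mylpf*, both lower. *Myh4* was 3.86-fold lower in HPR-treated muscle (interval 3.64 to 4.10) and *Mylpf* 2.95-fold lower (2.62 to 3.31). They were the 2 members at least 2-fold lower among 9 with 100 UMIs or more over both sections, and 0 were at least 2-fold higher; of all 316 genes compared, 2.22% were at least 2-fold lower and 3.8% higher. *Myh1* was 1.205-fold higher (1.10 to 1.32), but its log2 ratio of 0.27 turned to -0.21 without segments 2 and 3 of HPR-treated skin and to -0.51 on the right side of the image. *Mybph* was 1.74-fold lower (1.48 to 2.05), *Csrp3* was 1.85-fold lower (1.47 to 2.33) and *Tpm2* had a ratio of 0.885 with an interval that includes no difference (0.778 to 1.01). Per reference UMI *Myh4* was 3.02-fold lower (2.85 to 3.21) and *Mylpf* 2.31-fold lower (2.05 to 2.59), while *Myh1* was 1.54-fold higher and the ratio of *Tpm2* turned to 1.13 (0.994 to 1.29); on that scale 1.27% of all genes were at least 2-fold lower and 10.4% higher. The members' median log2 ratio was -0.55 per all UMIs and -0.20 per reference UMI, against 0.18 and 0.53 over all genes. Among other fast-fibre genes, *Pvalb* was 3.10-fold lower (2.51 to 3.84), or 2.42-fold per reference UMI, and *Tnni2*, fast troponin I, had a ratio of 1.07 (0.796 to 1.44). No measured gene of the thin-filament (6), thick-filament and titin (3), Z-disc (8) and M-band (4) lists reached 2-fold on either scale; per all UMIs the extremes were *Nrap* at 1.88-fold lower and *Actn2*, a Z-disc actinin, at 1.38-fold higher.

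HPR-treated against UVR skin had 6 members past 2-fold. *Myh4* was 5.90-fold lower (5.59 to 6.23), *Mylpf* 4.16-fold lower (3.75 to 4.62), *Smpx* 3.40-fold lower (1.87 to 6.78), *Tpm2* 2.09-fold lower (1.89 to 2.31) and *Mybpc2* 2.05-fold lower (1.83 to 2.30), while *Mybph* was 3.88-fold higher (3.17 to 4.75). That made 5 members lower and 1 higher among 9 compared, beside 11.6% lower and 21.8% higher among all 524 genes. Per reference UMI, *Tpm2* and *Mybpc2* no longer reached 2-fold (1.37-fold and 1.35-fold lower), whereas *Csrp3* and *Myh2* did (2.18-fold and 2.08-fold higher). Neither direction held in all settings: per all UMIs the log2 ratio of *Csrp3* was 0.52, but -0.65 on the right side of the image, and that of *Myh2* was 0.46, but -0.12 with muscle spots set at 10% by the reference genes. *Myh1*, 1.42-fold lower per all UMIs (1.33 to 1.52), had a ratio of 1.07 per reference UMI (0.996 to 1.14). On the reference scale *Myh4* stayed 3.88-fold lower, *Mylpf* 2.74-fold lower, *Smpx* 2.24-fold lower and *Mybph* 5.89-fold higher. There 45.2% of all genes were at least 2-fold higher and 3.63% lower, with a median log2 ratio over all genes of 0.88 against 0.27 per all UMIs. The members' medians were -0.43 and -1.03. Of the other genes, *Pvalb* was 4.99-fold lower (4.14 to 6.06) and 4 of 10 fast-fibre genes were at least 2-fold lower per all UMIs and 3 per reference UMI, with list medians of -0.73 and -0.13. *Ttn*, titin, was 2.65-fold lower and *Nrap* 2.95-fold lower per all UMIs, but 1.74-fold and 1.94-fold per reference UMI, short of the size rule, whereas *Pdlim3*, a Z-disc LIM protein, was 2.45-fold higher (2.27 to 2.63) and passed on both scales. *Foxo1*, a transcription factor of the muscle atrophy programme, was 3.05-fold higher (2.45 to 3.81), or 4.63-fold per reference UMI. It was the only one of 3 measured genes of an 8-gene atrophy list to reach 2-fold, beside the 21.8% and 45.2% of all genes given above. *Ddit4* of that list was 1.78-fold lower (1.15 to 2.86) per all UMIs. The list's median log2 ratio was -0.43 per all UMIs and 0.18 per reference UMI. *Foxo1* was also higher in retinol-treated than in UVR skin, 1.78-fold per all UMIs and 2.12-fold per reference UMI. In that comparison *Eif4ebp1* of the list was 1.60-fold lower (1.02 to 2.60) per all UMIs, with a list median of -0.45. Against retinol-treated skin, HPR-treated skin had *Foxo1* 1.71-fold and 2.19-fold higher, so both calls on *Foxo1* hold per reference UMI only.

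Retinol-treated against UVR skin, which shares the UVR section with the previous comparison, had higher levels of *Mybph*, *Myom3*, *Csrp3* and *Myh2*. *Mybph* was 6.73-fold higher (5.61 to 8.11), *Myom3* 3.44-fold higher (2.29 to 5.22), *Csrp3* 2.66-fold higher (2.20 to 3.22) and *Myh2* 2.01-fold higher (1.52 to 2.64). The other 6 members were 1.41-fold to 1.91-fold lower, *Smpx* being the last. These 4 higher and 0 lower of 10 stand beside 7.03% higher and 4.42% lower among all 498 genes compared. The members' median log2 ratio was -0.55, against 0.12 over all genes, and -0.30 against 0.37 per reference UMI. The same 4 genes passed 2-fold per reference UMI, at 8.003-fold for *Mybph*, 4.10-fold for *Myom3*, 3.16-fold for *Csrp3* and 2.38-fold for *Myh2*; on that scale 16.1% of all genes were at least 2-fold higher and 1.81% lower. None of 11 measured reference genes, 6 thin-filament genes, 10 Z-disc genes or 10 fast-fibre genes reached 2-fold per all UMIs; *Pdlim3* came nearest, 1.94-fold higher, and passed at 2.31-fold per reference UMI. Per all UMIs 2 of 6 M-band genes were lower, among them *Myom1*, a myomesin, 2.36-fold lower (1.58 to 3.65), against 0 of 6 per reference UMI, with *Myom1* at 1.99-fold.

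UVR against control skin rests on 25 control muscle spots. *Myh1* was 2.69-fold higher in UVR muscle (2.32 to 3.13), *Myh2* 4.03-fold higher (1.53 to 15.0), from 4 control UMIs, and *Csrp3* 2.88-fold higher (1.54 to 6.08), from 10 control UMIs. *Mybph* was 3.92-fold lower (2.98 to 5.13), and *Myh4* 1.74-fold lower (1.69 to 1.80). Of 9 members compared, 3 were at least 2-fold higher and 1 lower, beside 12% and 3.17% of all 410 genes. *Tpm2* was 1.99-fold higher (1.70 to 2.35), just short of the size rule, and *Mylpf* had a ratio of 0.929 with an interval that includes no difference (0.853 to 1.01). *Mybpc2* had a ratio of 1.06 (0.929 to 1.22). Per reference UMI the same 4 genes passed, with *Mybph* 4.29-fold lower, and *Myh4* was 1.91-fold lower, beside 8.54% of all genes at least 2-fold higher and 4.15% lower; *Mybpc2* turned to a ratio of 0.973 (0.850 to 1.12). The members' median log2 ratio was 0.09 per all UMIs and -0.04 per reference UMI, against 0.21 and 0.08 over all genes. Of 10 fast-fibre genes 1 reached 2-fold, *Pvalb*, 2.56-fold lower (2.31 to 2.82), against 2 per reference UMI. Among thin-filament genes *Lmod2*, a leiomodin that promotes assembly of actin filaments, was 2.86-fold higher (1.81 to 4.80), and among Z-disc genes *Nrap* was 2.69-fold higher (1.66 to 4.67). *Alpk3*, a kinase-like protein of the M-band list, had 154 UMIs in UVR muscle and 2 in control muscle (9.76-fold, 2.66 to 81.3).

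**Figure D4:**
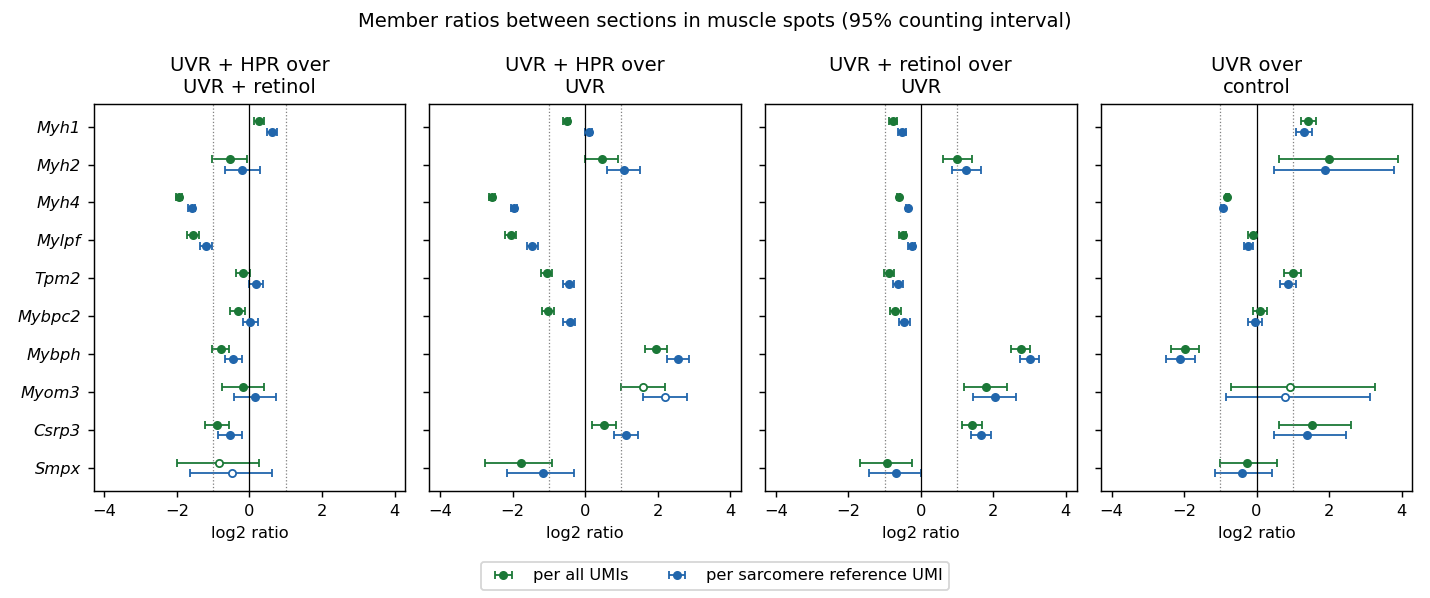
Log2 ratio of each gene between sections in the 4 comparisons, per all UMIs and per sarcomere reference UMI, with counting intervals; open symbols had under 100 UMIs over both sections and dotted lines mark 2-fold. *Myh4* and *Mylpf* are left of 2-fold on both scales in both comparisons of HPR-treated skin, and *Mybph* is right of it against UVR skin in both treated skins.

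Genes of slow and of immature muscle stayed below the count minimum. None of the slow-fibre list and none of the list of developmental and denervation genes reached 100 UMIs in any comparison. That does not place each of them near 0, and counts are given here for only some of them. The embryonic and perinatal heavy chains *Myh3* and *Myh8* had at most 1 UMI in a section, the transcription factor *Myog* 2, 2, 4 and 0 UMIs, the slow troponin *Tnnt1* 8, 3, 11 and 1 UMIs, and *Pax7*, the marker of satellite cells, 0 UMIs in all muscle spots. In the atrophy list, *Ddit4* had 121 UMIs in UVR muscle and 1 in control muscle, a 15.3-fold ratio with an interval of 2.70 to 611. *Actc1*, *Tpm3*, *Xirp2* and *Myod1*, which these lists also name, were not analysed here.

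Across the muscle spots of a section, *Myh4* and *Myh1* ran against each other. With each gene divided by the reference UMIs of its spot, their correlation was -0.37 on average over the 4 sections (-0.51 to -0.24), over 520 spots in all. Among 356 genes with 200 UMIs or more, the 3 most like *Myh4* were *Clta* (mean r = 0.53), *Lor* (0.52) and *Pdia3* (0.51), of which *Lor* is a keratinocyte gene, and the 3 most like *Myh1* were *Hspb6* (0.33), *Ttn* (0.30) and *Csrp3* (0.26). For *Csrp3* they were *Ndufb7* (0.32, but -0.05 in the lowest section), *Myh1* (0.26) and *Hspb7* (0.25). The genes nearest to *Myh2* (*Mdh1*, *Trim54*, *Asb2*, at most 0.29) and *Mybph* (*Ndufa2*, *Mtln*, *Ankrd23*, at most 0.19) had values below or near 0 in at least 1 section. All these values share a denominator, the depth of the spot and its mix of tissue, so they are descriptions.

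Members also had UMIs outside muscle spots, and *Mybph*, *Tpm2*, *Myh4* and *Myom3* are given here. In keratinocyte-rich spots *Mybph* had 49, 58, 74 and 24 UMIs, or 48.8 CPM in HPR-treated, 51.5 CPM in retinol-treated, 34.4 CPM in UVR and 110 CPM in control skin. In the spots of neither kind it had 3, 12, 0 and 1 UMIs. *Tpm2* had 52.8, 55.9, 145 and 78.1 CPM in keratinocyte-rich spots and 76.8, 80.8, 284 and 220.2 CPM in the spots of neither kind. The reference genes were not part of the spot rule, although the rule keeps muscle content low in these spots. Set against them, *Mybph* had 216, 358, 104 and 133 per 1000 reference UMIs in keratinocyte-rich spots, on 227, 162, 712 and 181 reference UMIs, compared with 27.4, 37.2, 4.65 and 19.9 in muscle spots. The spots of neither kind had 25.4, 126, 0 and 9.90, which is above the muscle value in retinol-treated skin only. *Myom3* had 10, 12, 18 and 3 UMIs in keratinocyte-rich spots. That was 44.1, 74.1, 25.3 and 16.6 per 1000 reference UMIs, compared with 5.75, 5.13, 1.25 and 0.720 in muscle spots. *Tpm2* had 233, 389, 438 and 93.9 per 1000 reference UMIs in keratinocyte-rich spots. It had 84.7, 147, 194 and 149 in the spots of neither kind. Both exceeded its muscle values of 52.2, 46.2, 71.7 and 39.4 in every section. *Myh4* had 64, 38, 536 and 81 UMIs in keratinocyte-rich spots, or 282, 235, 753 and 448 per 1000 reference UMIs. In muscle spots *Myh4* had 160, 485, 623 and 1189 on that scale. The source of these UMIs was not tested.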

How the data were processed

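The authors deposited whole-number UMI counts, per gene and per spot over tissue, which were used as they are. Space Ranger 2.0.0, Seurat 4.1.0 and the build mm10 are named in the submitters' processing notes. Probes hybridised to fresh-frozen skin were read with the Visium kit meant for fixed tissue, per the labels' protocols. The gap in the tissue of each area separated its sections. Of all barcodes, 430 occurred on both capture areas, where a barcode marks a grid position.

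Counts were summed over the muscle spots of a section. Levels carry exact Poisson intervals, and shares and ratios exact Clopper-Pearson intervals. All genes with 100 UMIs or more over both sections were compared, without a pseudocount, against a size rule of 2-fold; no p-value was computed. The text names all 10 members, the highest and lowest gene of each pathway list, the 3 genes most correlated with each of 5 members, and genes at 0. *Ddit4*, *Pdlim3* and *Nrap* fall under the list rule, and *Myh3*, *Myh8*, *Myog* and *Tnnt1* were chosen after their values were seen. Members and lists were chosen with earlier results of these data known. Coordinates and promoters are from RefSeq tables of GRCm38.p6, matched by symbol for 10 of 10 members. Python 3.11.15, numpy 2.4.6, scipy 1.17.1, pandas 2.3.3 and matplotlib 3.10.9 were used, and ratios were checked on simulated counts. Alternatives varied the spot rule, depth minimum, scaling, weight of spots, image side and reading of the labels.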

Additional observations from a re-analysis of the deposited data

How the results depend on the processing

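No paired analysis was possible because each group had 1 section. The reading of upper and lower had the largest effect. By the spot grid, *Myh4* made up 85.0% of heavy chain UMIs in HPR-treated, 55.9% in retinol-treated, 96.2% in UVR and 84.4% in control muscle. That reading reversed log2 ratios of UVR over control to -1.43 for *Myh1*, -2.01 for *Myh2*, 1.97 for *Mybph* and -1.53 for *Csrp3*, and of HPR over retinol to 1.95 for *Myh4* and 1.56 for *Mylpf*. It also reversed *Mybph* in retinol over UVR (-0.016) and *Tpm2* in HPR over UVR (0.11), and it left 2 members at 2-fold in HPR over UVR in place of 6. No other setting tried reversed a member past 2-fold.

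Counts of members past 2-fold for retinol over UVR were 4, but 2 with muscle spots set at 10% of UMIs, 2 on the left side of the image, 2 on the right side and 7 over all kept spots. The 4 were all higher, whereas over all kept spots 6 of the 7 were lower and only *Mybph* was higher. Muscle spots held 8.10% of the UMIs of kept spots in retinol-treated skin and 12.4% in UVR skin. The part of this in the count over all kept spots was not tested. Shares over all genes were given for the main spots only, so no count for another setting in this section has one beside it. For UVR over control the left side gave 2 in place of 4. Without segments 2 and 3 of HPR-treated skin, a setting chosen after seeing the data, HPR over retinol gave 4 in place of 2. The *Myh4* share in HPR-treated muscle was 34.2% on the left side and 74.7% on the right, 73.4% with spots set at 10% of UMIs, 73.3% without segments 2 and 3, and 62.5% with spots set at 10% by the reference genes, a rule also chosen after seeing the data. In retinol-treated muscle it was 88.7% on the left, 77.7% on the right, 86.4% and 86.0% under the last 2 spot rules and 80.4% as a mean over spots. In UVR muscle it was 87.2% on the left, 80.3% on the right and, as a mean over spots, 80.0%. In control muscle it was 99.5% on the left, 94.6% on the right and 95.5% by the reference genes at 10%. Over the settings other than the grid, the log2 ratio of *Myh4* ranged from -3.73 to -1.59 in HPR over UVR and from -3.19 to -0.79 in HPR over retinol, the weakest of the second being the right side. *Mylpf* ranged from -2.16 to -1.45 and from -1.73 to -1.21, and *Mybph* from 0.22 to 3.05 in HPR over UVR and from 1.58 to 3.67 in retinol over UVR. Members short of 2-fold also changed sign: *Csrp3* ranged from -0.65 to 1.48 and *Myh2* from -0.12 to 1.06 in HPR over UVR, and *Myh1* from -0.51 to 0.79 in HPR over retinol and from -1.22 to 0.095 in HPR over UVR. The cause of these shifts was not tested. Depth limited *Myom3*, *Smpx* and, in control muscle, *Myh2* and *Csrp3*.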
